A study of Homo sapiens with 2 samples.

Results

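The levels of 10 unfolded protein response genes were compared in HSC-3, an established cell line from a squamous carcinoma of the human tongue, after treatment with FIN56 or DMSO. They are *HSPA5*, *HSP90B1*, *XBP1*, *ATF6*, *ERN1*, *DNAJB9*, *HERPUD1*, *SEL1L*, *PDIA4* and *CALR*, and they were taken by symbol from the 60616 genes listed in the deposited tables. All 10 were found, each in 1 row. The FIN56 group was 1 RNA-seq library of cells given 1 µM FIN56 for 48 h, and the DMSO group was 1 library of cells given 0.1% DMSO, for which the labels give no time. FIN56 triggers ferroptosis, in which peroxidized membrane lipids kill the cell, and the study used it at a sublethal dose to find genes influenced by ferroptotic stress. With 1 library per condition there was no replicate check and no test between conditions, so every difference below compares 2 libraries.

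The endoplasmic reticulum (ER) folds secreted and membrane proteins, and the unfolded protein response is the set of signals it sends when folding falls behind. Its sensors sit in the ER membrane. IRE1 splices the *XBP1* messenger into the form that encodes an active transcription factor, ATF6 moves to the Golgi and is cut there into one, and PERK phosphorylates eIF2α, which slows translation and favours that of ATF4. Their targets are chaperones, disulfide isomerases and the machinery of ER-associated degradation, which sends misfolded proteins to the proteasome. Squamous carcinoma cells make large amounts of membrane and secreted protein, and the pathway is active at some level in most growing cells.

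None of the 10 genes reached the fold change of 1.5 that the study used to call a gene higher in FPKM, and none was at 1/1.5 or less. FPKM is the read estimate per kilobase of gene length, scaled by library depth. Among the 24454 genes whose FPKM exceeded 0 on both sides, 14.7% were at 1.5 or more and 17.3% at 1/1.5 or less. Among the 12638 genes at an FPKM of 1 or more on both sides, called expressed genes from here on and holding all 10, these shares were 3.87% and 6.77%. The FPKM ratios of FIN56 over DMSO ran from 0.822 for *CALR* to 1.29 for *DNAJB9*. *DNAJB9*, *ERN1*, *ATF6*, *PDIA4*, *SEL1L* and *HERPUD1* had the higher value with FIN56, and *HSP90B1*, *XBP1*, *HSPA5* and *CALR* the lower one. A ratio above 1 was thus seen for 6 of the 10 genes, against 53.5% of the expressed genes. The median ratio of the 10 genes was 1.08 and that of the expressed genes 1.02.

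The libraries held 70184517 (DMSO) and 73062209 (FIN56) expected counts, of which mitochondrial genes took 4.77% and 5.75%. Squamous epithelial markers were present, with an FPKM of at least 43.99 for each of 8 genes in the DMSO library (*KRT5*, *KRT14*, *KRT6A*, *KRT17*, *TP63*, *CDH1*, *EPCAM* and *ITGA6*) and a summed TPM of 6970 in DMSO and 6740 in FIN56. The summed TPM of 4 fibroblast markers was 6.89 and 3.82, and that of 3 endothelial markers 0.12 in both libraries. Of the leukocyte markers, *CD14* had an FPKM of 3.62 with DMSO and 5.15 with FIN56. *PTPRC*, *CD3E* and *COL1A2* were listed at 0 in both libraries. In bulk RNA, fewer cells and less RNA per cell cannot be told apart, and every value is a share of its library.

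The levels of the 10 genes spanned a wide range and kept their order between the libraries. From the highest FPKM to the lowest the order was *HSP90B1*, *CALR*, *HSPA5*, *PDIA4*, *XBP1*, *SEL1L*, *HERPUD1*, *ATF6*, *DNAJB9* and *ERN1*, in DMSO and in FIN56 alike. The highest FPKM was 156 times the lowest with DMSO and 131 times with FIN56. Without replicates it cannot be said which neighbours in this order differ beyond the spread between samples. The closest neighbours in the DMSO library were *HSP90B1* and *CALR*, with a quotient of 1.02, which was 1.21 in the FIN56 library. Together the 10 genes made up 0.208% of all TPM with DMSO and 0.196% with FIN56. Of that sum, the chaperones *HSPA5*, *HSP90B1* and *CALR* held 85.3% and 83.1%.

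**Figure D1:**
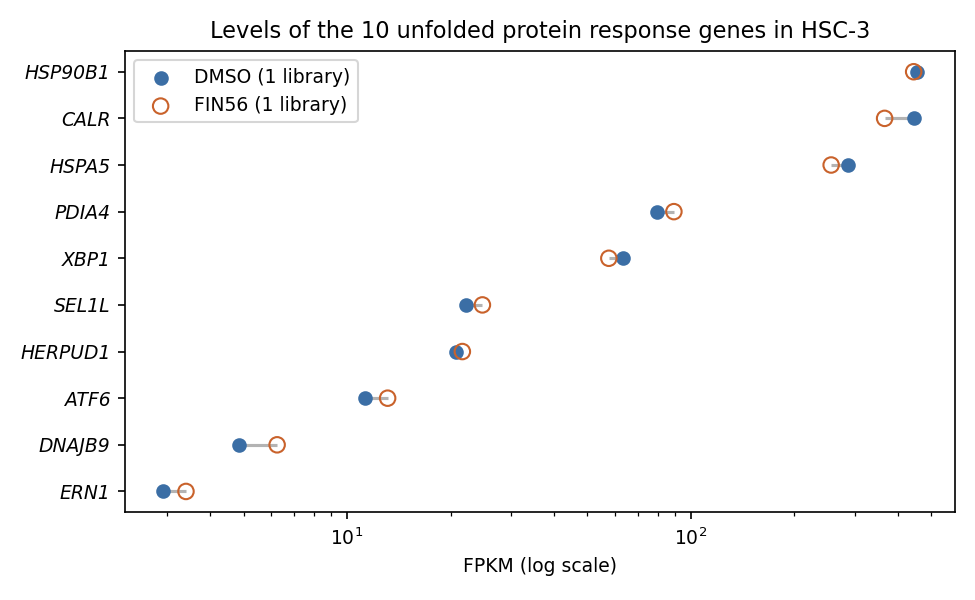
FPKM of each of the 10 genes (log axis) in the DMSO library (filled points) and the FIN56 library (open circles), 1 library each, with no error bars. The order of the genes is the same in both, from *HSP90B1* (454.54 and 444.39) down to *ERN1* (2.91 and 3.40), and the distance between the libraries is small beside that between genes.

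The sensors were the least abundant members together with *DNAJB9*, and both had the higher FPKM with FIN56. *ERN1* encodes IRE1α, the kinase and ribonuclease that splices *XBP1*, and lies on chromosome 17 from 64039080 to 64130819 on the minus strand (GRCh38). Its FPKM was 2.91 in DMSO and 3.40 in FIN56, from 1325 and 1667 expected counts. The FPKM ratio was 1.17 and the count ratio 1.21, with a 95% counting interval of 1.12 to 1.2999. The interval follows from the Clopper-Pearson bounds on how a gene's counts divide between the libraries, given their totals. It covers counting error only, because 1 library per condition gives no spread between cultures. PCR copies of 1 molecule could not be told from separate molecules, so it may be too narrow even for counting error.

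*ATF6* (chromosome 1, 161766298 to 161977574, plus strand) encodes the sensor that is cut in the Golgi. Its FPKM was 11.24 in DMSO and 13.12 in FIN56, a ratio of 1.17 like that of *ERN1*. The counts behind it were 5641 and 6085, which gave a count ratio of 1.04 with an interval of 0.999 to 1.07. The FPKM and the count ratio came from the same reads and differed by the effective gene length, which RSEM sets per library by the transcripts it infers. The FPKM ratio of *ATF6* was 1.13 times its count ratio, and a shift at least that large, in either direction, was seen for 10.3% of the expressed genes. Which transcripts of *ATF6* made up the mix was not analysed here.

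*XBP1* (chromosome 22, 28794555 to 28800597, minus strand) encodes the transcription factor whose messenger IRE1 splices. Its FPKM was 63.34 in DMSO and 57.71 in FIN56, from 7673 and 7324 expected counts. The FPKM ratio was 0.911 and the count ratio 0.917, with an interval of 0.888 to 0.947. Gene counts add the spliced and the unspliced messenger together, so the splicing step itself was not measured by these values.

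The abundant chaperones stood below their DMSO level by FPKM. *HSPA5* (chromosome 9, 125234853 to 125241382, minus strand) encodes BiP, the Hsp70 of the ER lumen, which binds unfolded chains and holds the sensors inactive. Its FPKM was 286.67 in DMSO and 255.75 in FIN56, a ratio of 0.892, and its count ratio was also 0.892, with an interval of 0.883 to 0.901. *CALR* (chromosome 19, 12938578 to 12944489, plus strand) encodes calreticulin, a lectin chaperone that binds calcium and glycoproteins. Its FPKM was 444.86 and 365.84, the largest distance between the libraries among the members with a lower value. The FPKM ratio of *CALR* was 0.822 and its count ratio 0.820, with an interval of 0.810 to 0.830. Ratios below that of *CALR* were listed for 19.7% of the expressed genes.

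*HSP90B1* (chromosome 12, 103930107 to 103953931, plus strand) encodes GRP94, the Hsp90 of the ER. Its FPKM was 454.54 in DMSO and 444.39 in FIN56, a ratio of 0.978. Its expected counts were 73837 and 79952, and the count ratio of 1.04 had an interval of 1.03 to 1.05, on the other side of 1. The direction of *HSP90B1* therefore depends on whether the effective gene length enters. The counts of *HSPA5*, *CALR* and *HSP90B1* were not whole numbers, since RSEM divides reads that fit more than 1 gene. The pseudogenes *HSPA5P1* and *HSP90B2P* held at most 10 expected counts in either library. On the strand opposite *CALR*, the long non-coding RNA gene ENSG00000267458 held 774.93 counts in DMSO and 590.82 in FIN56, and on the strand opposite *HSP90B1* the coding gene *UQCC6* held 693.06 and 745.58. The library kit keeps strand, but whether the counting used it is not given in the sources used here.

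Quotients of the chaperones within a library do not depend on how the libraries were scaled, though by FPKM they still depend on effective gene length. The FPKM of *HSP90B1* was 1.59 times that of *HSPA5* in DMSO and 1.74 times in FIN56. *CALR* stood at 1.301 times its membrane-bound relative *CANX* in DMSO and 1.18 times in FIN56. *HYOU1* encodes a large Hsp70 relative that helps BiP release its nucleotide, and the FPKM of *HSPA5* was 6.93 times that of *HYOU1* in DMSO and 9.58 times in FIN56. For *DNAJB11*, a J-domain cochaperone of BiP, the quotient moved the other way, from 3.86 in DMSO to 2.58 in FIN56.

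*PDIA4* and *DNAJB9*, which serve folding beside these chaperones, had the higher value with FIN56 by FPKM and by counts. *PDIA4* (chromosome 7, 149003062 to 149028662, minus strand) encodes ERp72, a disulfide isomerase. Its FPKM was 79.60 in DMSO and 89.22 in FIN56, a ratio of 1.12, and its count ratio of 1.12 had an interval of 1.10 to 1.15. *DNAJB9* (chromosome 7, 108569867 to 108574850, plus strand) encodes ERdj4, a J-domain protein that works with BiP and is a textbook target of spliced XBP1. Its FPKM was 4.86 in DMSO and 6.26 in FIN56, and the ratio of 1.29 was the largest of the 10 genes. It rested on 758 and 942 expected counts, with a count ratio of 1.19 and an interval of 1.08 to 1.32. A lower FPKM ratio than that of *DNAJB9* was listed for 87.4% of the expressed genes. The FPKM of *HSPA5* was 59.0 times that of *DNAJB9* in DMSO and 40.9 times in FIN56.

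The members that act in ER-associated degradation differed from each other. *SEL1L* (chromosome 14, 81471547 to 81533853, minus strand) encodes the adaptor that holds the ubiquitin ligase HRD1 in its complex. Its FPKM was 22.13 in DMSO and 24.75 in FIN56, a ratio of 1.12, and its counts of 10534 and 12523 gave a ratio of 1.14 with an interval of 1.11 to 1.17. *HERPUD1* (chromosome 16, 56932142 to 56944864, plus strand) encodes a membrane protein with a ubiquitin-like domain that joins the same complex. Its FPKM was 20.77 and 21.64, a ratio of 1.04, from 2111 and 2134 counts. The count ratio of *HERPUD1* was 0.971 with an interval of 0.914 to 1.03, so that no difference was detectable at this depth. *SEL1L* stood at 0.679 times *SYVN1*, the gene of HRD1, in DMSO and at 0.692 times in FIN56.

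**Figure D2:**
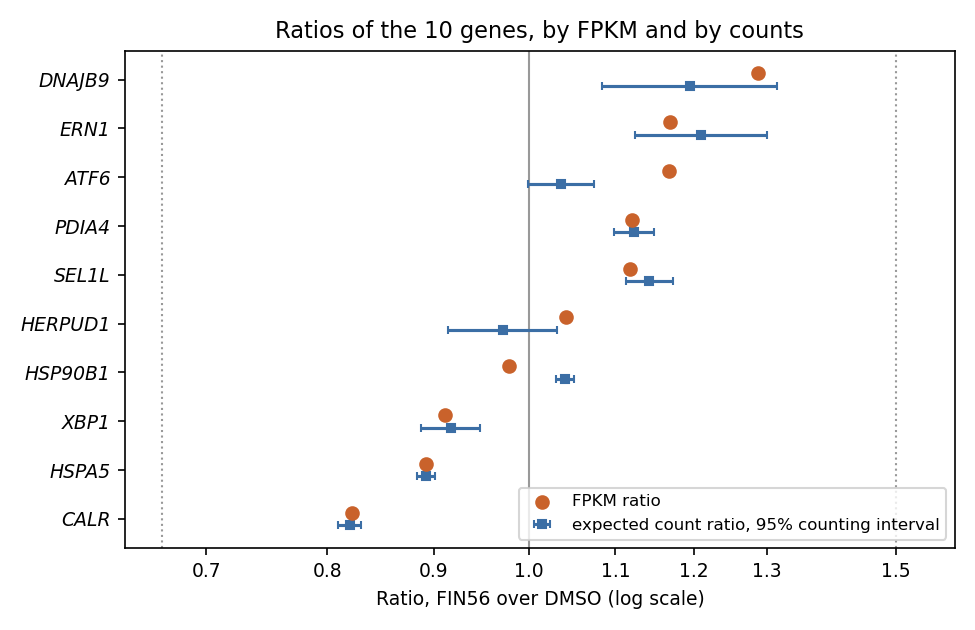
Ratio of FIN56 over DMSO (log axis) for the 10 genes by FPKM (round points) and by expected counts scaled by library totals (squares, with 95% counting intervals); the dotted lines mark 1.5 and 1/1.5. No point reaches a dotted line, and for *HSP90B1* and *HERPUD1* the measures fall on opposite sides of 1.

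By counts, the interval lay wholly above 1 for 5 of the 10 genes (*DNAJB9*, *ERN1*, *SEL1L*, *PDIA4* and *HSP90B1*) and wholly below 1 for 3 (*XBP1*, *HSPA5* and *CALR*). Among expressed genes these shares were 38.0% and 35.9%. At this depth a small difference between a pair of libraries exceeds counting error for most expressed genes, and the spread between cultures, which the design does not give, is not part of the interval. Of the 10 genes, 8 had the same direction under all the scalings and pseudocounts tried. *CALR*, *HSPA5* and *XBP1* were lower and *SEL1L*, *PDIA4*, *ATF6*, *ERN1* and *DNAJB9* higher with FIN56 in each. *HSP90B1* and *HERPUD1* changed direction, as their FPKM and count ratios show. In the rlog values of the authors, which shrink differences, FIN56 over DMSO placed all 10 genes between 0.9275 and 1.08.

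**Figure D3:**
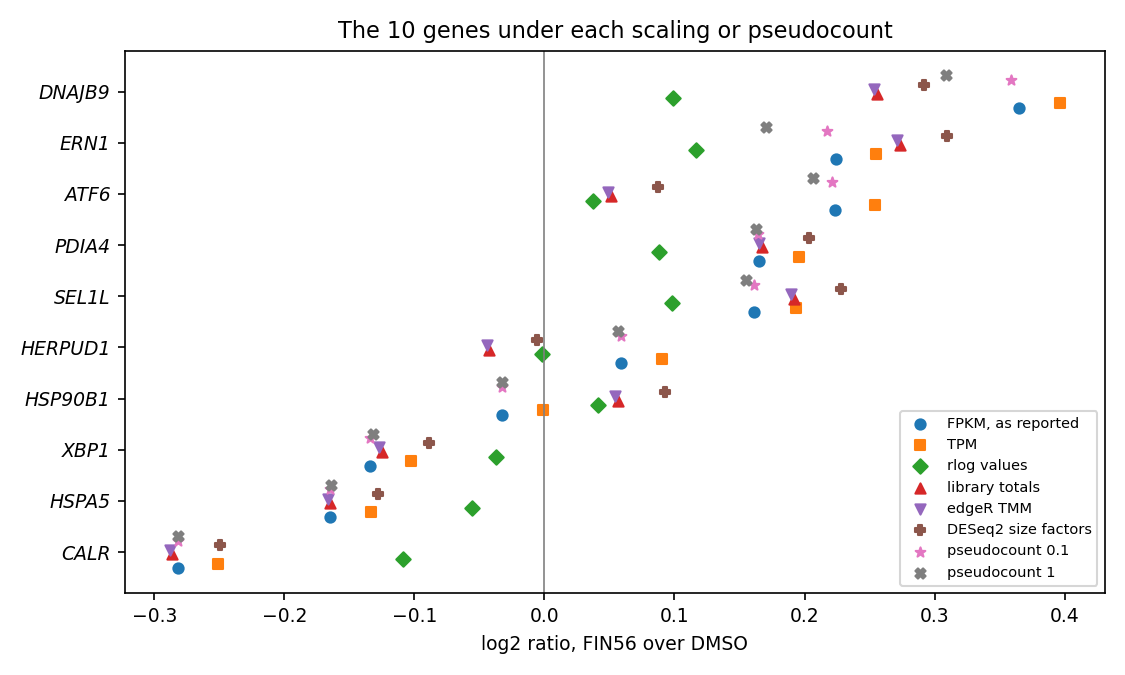
The log2 ratio of FIN56 over DMSO for each gene by deposited FPKM, TPM and rlog values, by expected counts under 3 scalings, and by FPKM with a pseudocount of 0.1 or 1; each mark is 1 gene under 1 measure. *HERPUD1* and *HSP90B1* have marks on both sides of 0, and the other 8 genes keep to one side.

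Chaperone genes of the ER are known for a promoter sequence, the ER stress response element (ERSE), that is bound by NF-Y at one end and by ATF6 or XBP1 at the other. Its letters are CCAAT, any 9 bases, then CCACG. RefSeq promoters (GRCh38.p14, 250 bases before to 50 after each start) were found for all 10 genes and were searched on both strands. An exact ERSE was present in the promoters of *HSPA5*, *HSP90B1*, *XBP1* and *CALR*, 4 of the 10 genes, and in 27 of 35116 promoters in all (0.0769%). A related element, ERSE-II (ATTGG, any 1 base, then CCACG), was present in *HERPUD1* and in 0.0541% of promoters. Among the other ER genes read below, ERSE-II was present in *HYOU1* and *SDF2L1*, with FPKM ratios of 0.646 and 1.17. The 8 letters TGACGTGG of the XBP1 site called UPRE, found in 0.729% of promoters, and the cyclic AMP response element TGACGTCA, found in 1.85%, were present in none of the 10 genes. ERSE and ERSE-II share CCACG, which UPRE also holds on its other strand, so the motifs can overlap. The sites are shown because they divide the members by their FPKM ratio. Capitals mark the element, each line is read 5′ to 3′ on the strand of the gene, and the element of *CALR* and the second of *HSP90B1* lie in reverse, so that they begin with CGTGG.

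HSPA5, ERSE, 66 to 48 bases upstream: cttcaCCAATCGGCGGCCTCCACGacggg
HSP90B1, ERSE, 194 to 176 bases upstream: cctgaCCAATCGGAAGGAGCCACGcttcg
HSP90B1, ERSE in reverse, 89 to 71 bases upstream: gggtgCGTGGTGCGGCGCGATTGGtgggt
XBP1, ERSE, 52 to 34 bases upstream: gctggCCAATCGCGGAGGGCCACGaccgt
CALR, ERSE in reverse, 225 to 207 bases upstream: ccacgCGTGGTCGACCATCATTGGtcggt
HERPUD1, ERSE-II, 117 to 107 bases upstream: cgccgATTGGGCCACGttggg

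The windows lie at chr9:125241386-125241414 for *HSPA5*, chr12:103930211-103930239 and chr12:103930316-103930344 for *HSP90B1*, chr22:28800598-28800626 for *XBP1*, chr19:12938379-12938407 for *CALR* and chr16:56932020-56932040 for *HERPUD1*. The RefSeq start of *HSP90B1* lies downstream of the gene start given above from GENCODE, so its windows fall inside that gene model. The promoter of *HSPA5*, a textbook case of this control, is shown from 250 to 40 bases upstream of its start (chr9:125241383-125241593, minus strand), with its exact ERSE in capitals among other CCAAT letters that have no exact partner:

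HSPA5: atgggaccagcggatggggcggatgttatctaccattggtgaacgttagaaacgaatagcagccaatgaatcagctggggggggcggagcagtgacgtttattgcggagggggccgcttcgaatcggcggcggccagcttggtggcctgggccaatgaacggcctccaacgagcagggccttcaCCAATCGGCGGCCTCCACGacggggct

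All 4 genes with an exact ERSE had an FPKM ratio below 1, from 0.822 to 0.978, and all 6 without it a ratio above 1, from 1.04 to 1.29. The median FPKM ratios were 0.902 and 1.14. By counts the division was not complete, since *HSP90B1* with the element was at 1.04 and *HERPUD1* without it at 0.971. In both libraries the 4 genes with the element also had a higher FPKM than every other member except *PDIA4*. Whether the ratios go with abundance or with the element was not tested. The element was searched for after these ratios had been seen. Only exact letters within the promoter bounds were sought, so a gene counted as without it may hold a near match or an element farther away. The other genes with an ERSE promoter numbered 12 among the expressed genes. Of these, 7 had an FPKM ratio below 1 and 5 above, with a median of 0.961. By counts 9 of the 12 were below 1, with a median of 0.926. Over all 9307 expressed genes with a RefSeq promoter, 4231 had an FPKM ratio below 1, with a median of 1.02, and 4480 a count ratio below 1, with a median of 1.01. Among the 12, named here after their values were seen, the ER genes *CRELD2* (0.758), *CANX* (0.905), *SERP1* (0.939) and *PDIA6* (0.983) had FPKM ratios below 1, and *ERO1B* (1.20), *ALG12* (1.04) and *FICD* (1.03) had ratios above 1. The lowest belonged to *TRIM5* at 0.588, an antiviral factor with no known part in ER folding. A match of letters is a description and says nothing of what bound there in these cells.

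**Figure D4:**
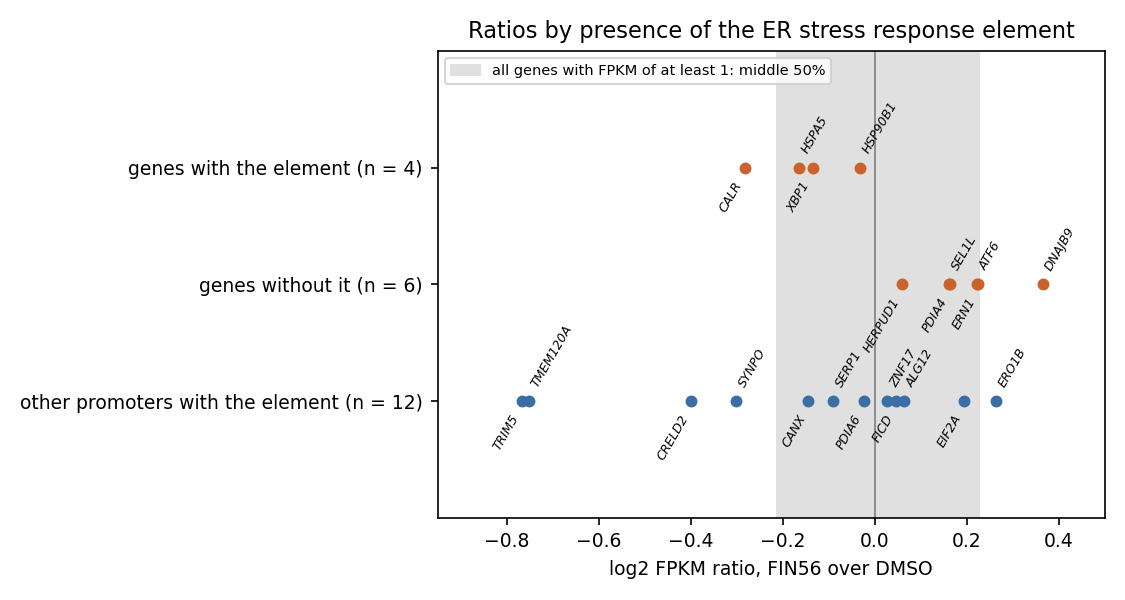
Log2 FPKM ratio of FIN56 over DMSO for the 4 genes with an exact ERSE in a RefSeq promoter, the 6 without, and the 12 other expressed genes with the element; each point is a gene, and the grey band holds the middle 50% of all expressed genes. The first group lies below 0, the second above 0, and the third on both sides.

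The rest of the pathway was read from 7 lists of genes by role, none of which holds any of the 10. Of the other sensors and the proteases that cut them, *ERN2* was listed at 0 in both libraries. *EIF2AK3*, the gene of PERK, stood at an FPKM of 10.61 with DMSO and 12.81 with FIN56 (ratio 1.21), close to the FPKM ratios of *ERN1* and *ATF6*. By counts the 3 sensors were less alike. The count ratio was 1.14 for *EIF2AK3* (interval 1.08 to 1.20), 1.21 for *ERN1* and 1.04 for *ATF6*. *MBTPS1* and *MBTPS2* encode the site-1 and site-2 proteases that cut ATF6 in the Golgi, as they cut the sterol regulator SREBP. Their FPKM values were 34.60 and 37.15 for *MBTPS1* (1.07), and 5.91 and 8.07 for *MBTPS2* (1.37). The ATF6 relatives *CREB3L4* and *CREB3L2* had ratios of 0.462 and 0.804. Over the 8 measured genes of this list 4 were above 1 and 4 below. The 4 below included *CREB3L1*, at an FPKM of 0.06 (DMSO) and 0.02 (FIN56) from 5 and 2 expected counts. The count interval of *CREB3L1* ran from 0.037 to 2.35, so its direction is not known.

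The PERK and ATF4 branch held genes far apart in both directions. *DDIT3*, the gene of the transcription factor CHOP, went from an FPKM of 21.18 to 31.42, a ratio of 1.48. The stress factor *ATF3* was at 1.37 and *PPP1R15A*, which encodes the phosphatase subunit that reverses eIF2α phosphorylation, at 1.34. *ATF4* itself stood at 0.895, from 251.36 and 225.01. *DDIT4*, an inhibitor of mTORC1 signaling, was at 0.359, from 294.05 to 105.71, and *ASNS*, asparagine synthetase, at 0.415, from 51.70 to 21.43. Of the 11 genes 6 were above 1 and 5 below by FPKM, with 0 at 1.5 or more and 2 at 1/1.5 or less. The 0 depends on the scaling, because *DDIT3* lies close to the threshold. By TPM it passed 1.5, at 31.68 with DMSO and 48.03 with FIN56. Its count ratio by library totals was 1.49.

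Among 12 other ER chaperones and cochaperones, 7 had a ratio above 1 and 5 below, with a median of 1.07. *HYOU1* had the lowest, at 41.36 and 26.71 FPKM (ratio 0.646) and a count ratio interval of 0.628 to 0.666. *HYOU1* was the only gene of this list at 1/1.5 or less. *CANX*, the gene of calnexin, had values of 341.99 and 309.45 (0.905), beside 0.822 for the related *CALR*. *DNAJB11* was at 1.33 and *SIL1*, a nucleotide exchange factor of BiP, at 1.21. The 15 disulfide isomerases and ER oxidases had a median of 1.07, with *QSOX1* and *TMX1* highest (1.29 and 1.28) and *ERP29* and *TXNDC11* lowest (0.694 and 0.863). The abundant isomerases *PDIA3* and *P4HB* were at 1.07 and 0.956, and none of the 15 genes passed 1.5 or 1/1.5.

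Genes of ER-associated degradation other than *SEL1L* and *HERPUD1* were mostly above 1. Of 21 measured genes, 16 were above 1 and 5 below, a share of 76.2% against 53.5% of expressed genes, and the median ratio was 1.14. *DERL2*, a membrane protein of the export channel, was at 1.32 and *EDEM1*, which marks glycoproteins for removal, at 1.304. *SYVN1* was at 1.10, with an FPKM of 32.59 and 35.76. Against this, *VCP*, the ATPase that pulls substrates out of the membrane, was at 0.726 and the ubiquitin ligase *RNF5* at 0.714. *DERL3* was listed at 0 in both libraries. For entry into the ER and N-glycosylation, 12 of 17 genes were above 1, with a median of 1.11, and *SSR3* and *RPN1* were highest (1.36 and 1.255) while *SPCS1* and *STT3A* were lowest (0.812 and 0.830). In the list of KDEL receptors and other ER membrane genes, which retrieve or buffer under stress, *TMBIM6* and *KDELR3* were highest (1.37 and 1.27) and *KDELR1* and *SERP1* lowest (0.930 and 0.939). In the latter 3 lists 0 genes reached 1.5 and 0 were at 1/1.5 or less.

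**Figure D5:**
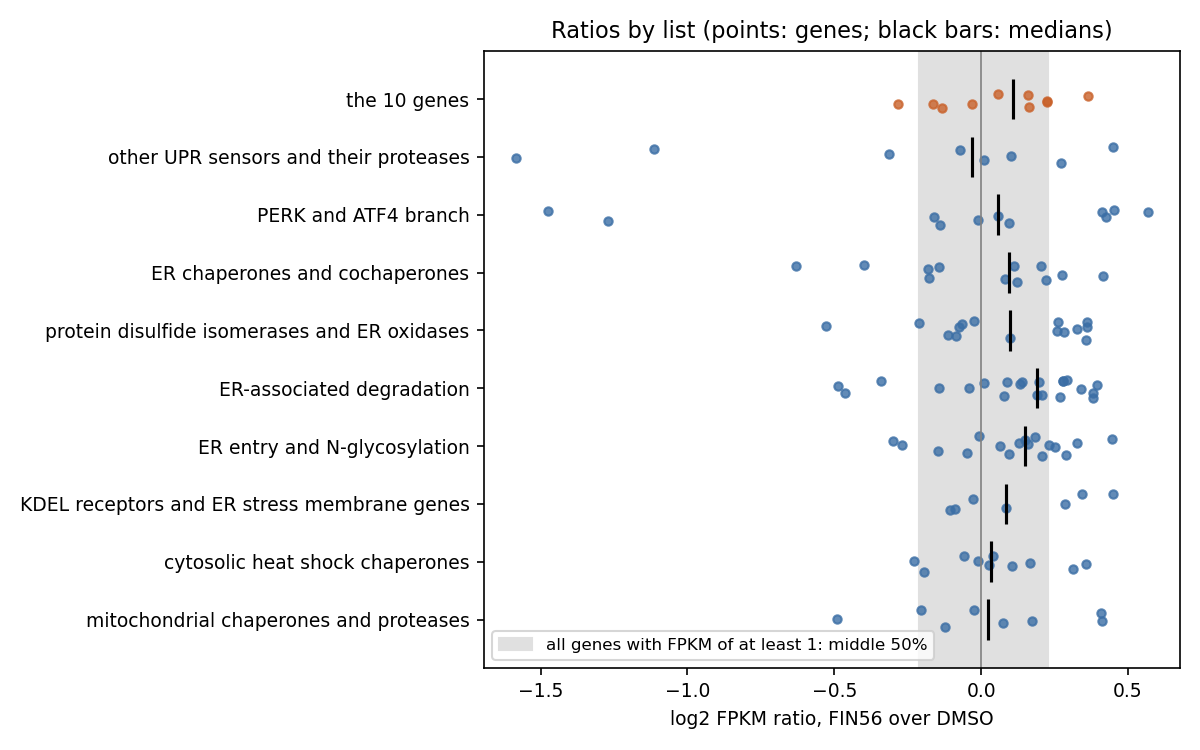
Log2 FPKM ratio of FIN56 over DMSO for the 10 genes (top row) and for each list, with 1 point per gene, a black bar at the median, and a grey band for the middle 50% of all expressed genes. All medians lie inside the band, and the points farthest left belong to the PERK and ATF4 branch and to the other sensors. The point farthest left is *CREB3L1*, which rests on 5 (DMSO) and 2 (FIN56) expected counts.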

How the data were processed

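RNA-seq of 2 HSC-3 libraries was read from the deposited gene tables. By the paper's methods, which describe tumor samples, and the submitters' processing notes, the authors aligned reads with STAR 2.6.1a to GRCh38 and estimated expected counts, FPKM and TPM with RSEM 1.3.1. The authors left the expected counts without normalization. The FPKM deposited by the authors are scaled for effective gene length and depth, to 2 decimals, and the deposited TPM are scaled to 1 common total. The log2-scale rlog values were deposited by the authors from DESeq2 1.26.0.

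Here the FPKM ratio, FIN56 over DMSO, was the main measure, compared with 1.5 and 1/1.5. Counts were rounded for 95% Clopper-Pearson intervals (scipy 1.17.1), and scaled with edgeR 4.0.16 (TMM) and DESeq2 1.42.0 size factors as alternatives. The count ratio scaled by library totals and its interval were tested on simulated counts that held no spread between cultures. The other steps were not tested in this way. Positions came from GENCODE release 44, later than the authors' annotation, and promoters from RefSeq. The members and the 9 lists (111 genes) were chosen with earlier results of these data known. Of each list the 2 highest and 2 lowest ratios with at least 100 counts in both libraries together were named, beside 12 genes named whatever their values. *CREB3L1*, below that count, was named as well, and further genes were named for their promoter elements after their values were seen. Genes most alike in pattern were not ranked, since there were 2 libraries. A leukocyte marker is not reported here.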

Additional observations from a re-analysis of the deposited data

How the results depend on the processing

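No paired analysis was possible because DMSO and FIN56 had 1 library each, and for the same reason none could be left out. The counts of 0 genes at 1.5 or more and 0 at 1/1.5 or less among the 10 were the same under every alternative, except that at a threshold of 5/4 *DNAJB9* (1 gene) passed. *HSP90B1*, at 0.978 by FPKM, became 1.03 with rlog values, 1.04 with library totals, 1.04 with TMM and 1.07 with DESeq2 size factors. *HERPUD1*, at 1.04 by FPKM, became 0.9985, 0.971, 0.970 and 0.996 in the same order. In both genes the FPKM ratio departs from the count ratio through the effective length. The median log2 ratio of the 10 genes, 0.11, was 0.039 with rlog values and stayed positive in all the alternatives. That of the other sensors, -0.031 with *CREB3L1* included, became 0.0009 with TPM and 0.0055 with rlog values. No scaling moved the median of all genes by over 0.1 (log2). Over all genes, 3583 reached 1.5 and 4240 reached 1/1.5. These counts were 7 and 16 with rlog values, 1863 and 2419 with a pseudocount of 0.1, and 403 and 708 with a pseudocount of 1. A floor of 1 FPKM left 489 and 855, and a floor of 10 counts 1323 and 1936. A threshold of 2 gave 2088 and 2384, and 5/4 gave 6005 and 6556. Filters test fewer genes and thresholds differ by construction, and rlog values shrink differences. Depth limited the members little, apart from *DNAJB9*, *ERN1* and *HERPUD1*, whose intervals were widest.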

Other observations

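Chaperones outside the ER were read in the same libraries. Of 10 cytosolic heat shock genes, 6 had an FPKM ratio above 1 and 4 below, with a median of 1.02. *BAG3* and *DNAJA1*, cochaperones of Hsp70, were highest (1.28 and 1.24), and *HSP90AB1* and *HSPA8*, the constitutive Hsp90 and Hsp70, were lowest (0.853 and 0.873). *HSPA1A* and *HSPA1B* are near-identical copies, so their separate values are uncertain. Of 8 mitochondrial chaperones and proteases, 4 were above 1 and 4 below, with a median of 1.02. *YME1L1* and *DNAJA3* were at 1.33 each, and the protease *LONP1* and the Hsp90 relative *TRAP1* at 0.712 and 0.868. In these lists 0 genes reached 1.5 or 1/1.5 by FPKM. By counts *LONP1* was below 1/1.5, at 0.610 with an interval of 0.582 to 0.639.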
